A study of Mus musculus with 12 samples.

Results

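Foxp3 and 7 further genes of the regulatory T cell programme, Il2ra, Ctla4, Ikzf2, Ikzf4, Lrrc32, Nrp1 and Capg, were followed across cultures of mouse CD8 T cells. The genes were taken by their symbols, which gave 8 of the 46078 genes listed. They filled 9 entries, because Ctla4 is listed under a second identifier that held 0 counts in all 12 libraries. The other 8 entries passed the filter on low counts, as did 14009 genes in all.

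RNA was sequenced from CD8 T cells of C57BL/6 spleen on day 7 of culture, and every culture received the interleukins IL-2 and IL-15. The TGFβ + RA group also received transforming growth factor beta (TGFβ) and all-trans retinoic acid (RA), the TGFβ group TGFβ without retinoic acid, and the RA group retinoic acid without TGFβ. The IL-2 + IL-15 group received neither. Each group had 3 libraries, described as biological replicates without saying whether they came from separate animals. The p-values therefore reflect only how far these samples vary. How the CD8 T cells were isolated is not given in the sources used here.

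Foxp3 is a forkhead transcription factor, best known from CD4 regulatory T cells, where it is required for suppressive function. In CD4 T cells TGFβ signals through SMAD proteins to switch Foxp3 on, and retinoic acid, acting through nuclear receptors, strengthens this. The programme around Foxp3 includes the interleukin-2 receptor chain Il2ra, the inhibitory receptor Ctla4, the Ikaros family factors Ikzf2 (Helios) and Ikzf4 (Eos), and the surface proteins Lrrc32 (GARP) and Nrp1. Il2ra and Ctla4 are also made by activated T cells that are not regulatory. The comparisons below ask whether these genes followed Foxp3 in CD8 T cells.

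Library totals ranged between 18300206 and 33477037 gene counts. Levels are CPM, or counts after scaling each library to the same size, and fold changes are log2 values ± SE. Each comparison was tested in edgeR by quasi-likelihood, p-values were adjusted over all tested genes by the Benjamini-Hochberg method, and a gene was called at an adjusted p under 0.05. The CD8 genes were present in all libraries, Cd8a at 858 CPM or more and Cd8b1 at 687 CPM or more. The summed level of 8 markers lay between 4998 and 8798 CPM. These also include T cell receptor and CD3 genes, which other T cells make too. Cd4 had 7 to 20 counts in TGFβ + RA libraries, 7 to 15 in TGFβ libraries, 41 to 70 in RA libraries and 27 to 48 in IL-2 + IL-15 libraries. Since RNA of whole cultures was measured, fewer cells with a transcript and less transcript per cell cannot be told apart.

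Foxp3 (ENSMUSG00000039521) lies on the plus strand at chrX:7573644-7595245 of GRCm38. Sequences upstream of annotated starts are shown for each gene with a long enough stretch outside its own exons, whatever its fold changes. Windows of up to 250 bases came from RefSeq (GRCm38.p6) and were matched for 5 of the 8 genes, of which 4 are shown. Capitals mark matches on either strand to the retinoic acid receptor half-site AGGTCA or to the STAT motif TTCNNNGAA. The SMAD palindrome GTCTAGAC, the forkhead motif GTAAACA, the Runt motif TGTGGT and the AP-1 motif TGANTCA were also searched.
Foxp3, chrX:7580233-7580482, plus strand: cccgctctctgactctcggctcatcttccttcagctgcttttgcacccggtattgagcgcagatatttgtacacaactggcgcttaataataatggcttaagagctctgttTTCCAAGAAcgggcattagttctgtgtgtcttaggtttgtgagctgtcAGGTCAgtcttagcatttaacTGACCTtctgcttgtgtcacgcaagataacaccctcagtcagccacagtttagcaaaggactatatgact
Foxp3, chrX:7579426-7579566, plus strand: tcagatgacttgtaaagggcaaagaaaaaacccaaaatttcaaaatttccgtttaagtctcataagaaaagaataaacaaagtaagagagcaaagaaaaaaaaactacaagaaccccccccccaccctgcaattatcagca
Nrp1, chr8:128358823-128359072, plus strand: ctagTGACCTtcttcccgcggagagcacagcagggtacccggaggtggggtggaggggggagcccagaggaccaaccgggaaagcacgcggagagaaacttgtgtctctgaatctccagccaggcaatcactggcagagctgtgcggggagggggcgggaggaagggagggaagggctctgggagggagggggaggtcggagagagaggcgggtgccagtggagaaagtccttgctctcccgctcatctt
Ctla4, chr1:60908775-60909024, plus strand: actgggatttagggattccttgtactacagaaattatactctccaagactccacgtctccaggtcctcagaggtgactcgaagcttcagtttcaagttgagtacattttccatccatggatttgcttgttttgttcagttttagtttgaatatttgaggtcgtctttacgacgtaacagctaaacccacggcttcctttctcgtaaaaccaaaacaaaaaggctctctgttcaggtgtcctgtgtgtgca
Il2ra, chr2:11642542-11642791, plus strand: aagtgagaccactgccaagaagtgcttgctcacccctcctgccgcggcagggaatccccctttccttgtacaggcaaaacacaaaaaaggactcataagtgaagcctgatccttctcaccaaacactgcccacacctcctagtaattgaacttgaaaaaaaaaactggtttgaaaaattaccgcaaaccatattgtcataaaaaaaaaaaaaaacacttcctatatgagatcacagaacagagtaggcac
The longer Foxp3 window held AGGTCA on the plus strand 91 bases before its RefSeq start and the reverse complement TGACCT 70 bases before it. The STAT match TTCCAAGAA, which reads as a match on both strands, lay 139 bases before that start. Nrp1 held TGACCT 246 bases before its RefSeq start. By GENCODE coordinates the windows of Foxp3, Nrp1 and Ctla4 lie inside the gene, and that of Il2ra lies before it. The longer Foxp3 window lies downstream of the shorter. Over 32851 promoters of 250 bases, 14% held AGGTCA and 7.02% held TTCNNNGAA, and none of the marked matches overlapped another. The other 4 motifs had no match in the windows shown, and they occurred in 0.167% (SMAD palindrome), 3.17% (forkhead), 14% (Runt) and 6.75% (AP-1) of all promoters. The matches are descriptions of these letters only.

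Foxp3 had 1325 counts or more in every library of the groups that had received TGFβ and 8 to 35 counts in the libraries of the other groups. Its level was 236, 240 and 167 CPM in TGFβ + RA libraries (4450, 7640 and 4536 counts), 52.8, 57.2 and 53.1 CPM in TGFβ libraries (1378, 1391 and 1325 counts), 0.364, 0.564 and 0.476 CPM in RA libraries (8, 15 and 10 counts), and 1.31, 0.814 and 0.614 CPM in IL-2 + IL-15 libraries (35, 20 and 20 counts). No library of 1 group overlapped with those of another, and the order ran from TGFβ + RA through TGFβ and IL-2 + IL-15 to RA. TGFβ alone raised Foxp3 by 5.91 ± 0.20 against IL-2 + IL-15 (adjusted p = 1.6e-10), rank 30 of all tested genes from the highest fold change down. Retinoic acid on top of TGFβ raised it by a further 1.98 ± 0.12 against TGFβ (adjusted p = 2.6e-08), rank 138 of all tested genes.

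Without TGFβ, retinoic acid gave no rise of Foxp3. RA libraries lay below IL-2 + IL-15 libraries by a log2 fold change of -0.91 ± 0.45 that missed the threshold (adjusted p = 0.159, with 0.0228 to 0.482 over the alternative analyses), and the DESeq2 Wald test alone called it lower. TGFβ + RA stood 8.80 ± 0.22 above RA on the log2 scale (adjusted p = 7.5e-12). The interaction, which asks whether the effect of one agent depends on the other, was 2.89 ± 0.46 for Foxp3 (adjusted p = 0.000675). TGFβ + RA replicate 3 had the lowest Foxp3 of its group and also held transcripts of myeloid cells (Lyz2 with 323 counts, S100a9 with 177 and S100a8 with 97), whose part in the level of Foxp3 was not tested. Without that library the gain of TGFβ + RA over TGFβ was 2.13 and the interaction 3.04.

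**Figure D1:**
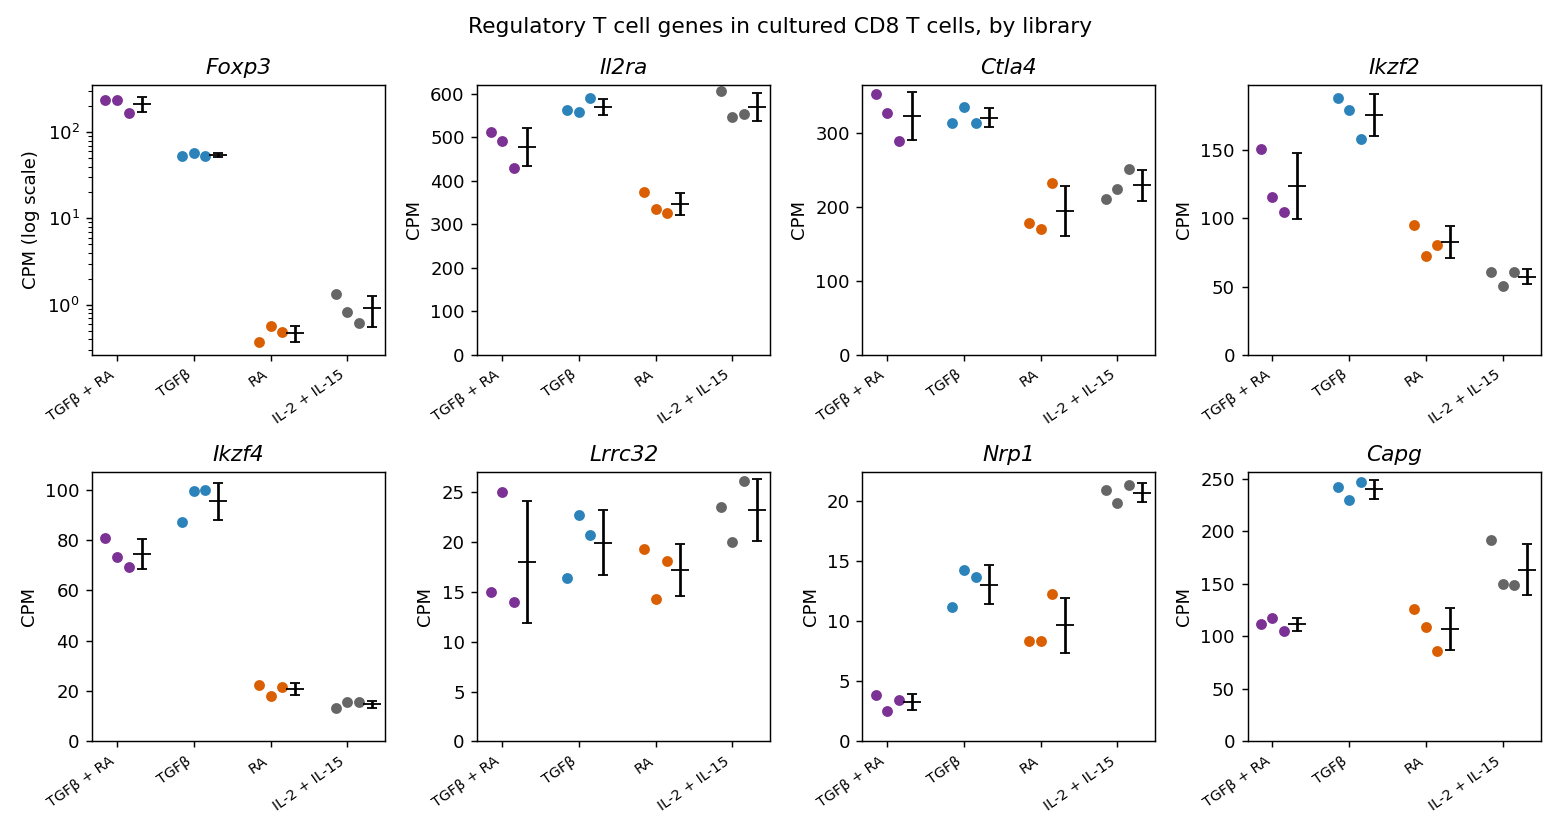
Level of each of the 8 genes in CPM (y axis; log scale for Foxp3, linear from 0 for the others) in the 3 libraries of each culture group (points), with the group mean and SD beside them. Foxp3 separates the groups with TGFβ (52.8 to 240 CPM) from those without (0.364 to 1.31 CPM), while the other genes change less and in differing directions.

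Transcripts that overlap Foxp3 were set beside it, since 18.6% of its exon bases are shared with a gene on the same strand and 18.7% with opposite-strand genes. Whether reads were counted by strand is not given in the sources used here. Flicr (ENSMUSG00000039545), a long non-coding RNA of the locus, had 1.75, 1.35 and 1.58 CPM in TGFβ + RA libraries, 0.919, 1.03 and 1.00 CPM in TGFβ libraries, 0.273, 0.451 and 0.238 CPM in RA libraries and 0.376, 0.529 and 0.461 CPM in IL-2 + IL-15 libraries. The 2 groups with TGFβ lay above the other groups without overlap. Flicr rose by 1.10 ± 0.26 with TGFβ against IL-2 + IL-15 (adjusted p = 0.00368) and by 0.65 ± 0.22 with TGFβ + RA against TGFβ (adjusted p = 0.0303), and it shares exon bases with Foxp3. The opposite-strand neighbour Ccdc22 had log2 fold changes of 0.05 ± 0.26 with TGFβ against IL-2 + IL-15 and -0.16 ± 0.27 with TGFβ + RA against TGFβ, neither called. Ppp1r3f, also on the opposite strand, was at 3.07 ± 0.662 CPM in TGFβ + RA cultures, 2.31 ± 0.397 in TGFβ cultures, 1.48 ± 0.225 in RA cultures and 1.70 ± 0.276 in IL-2 + IL-15 cultures. It was called higher in TGFβ + RA than in IL-2 + IL-15 (0.83 ± 0.21, adjusted p = 0.00337) and than in RA (1.03 ± 0.22, adjusted p = 0.0010), but not in TGFβ against IL-2 + IL-15 (0.43 ± 0.21, adjusted p = 0.117). The part of shared exon bases in these values was not tested.

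The Ikaros family factors rose with TGFβ but not with the further gain of Foxp3. Ikzf4, a partner of Foxp3 in gene silencing in CD4 regulatory T cells, had 80.9, 73.3 and 69.2 CPM in TGFβ + RA libraries, 87.0, 99.4 and 99.8 CPM in TGFβ libraries, 22.5, 18.2 and 21.7 CPM in RA libraries and 13.2, 15.7 and 15.5 CPM in IL-2 + IL-15 libraries. The groups did not overlap, and the TGFβ group was the highest. Ikzf4 rose by 2.69 ± 0.10 with TGFβ against IL-2 + IL-15 (adjusted p = 2.4e-10) and by 0.49 ± 0.10 with RA alone (adjusted p = 0.0028). Against TGFβ, TGFβ + RA lowered it, with a log2 fold change of -0.36 ± 0.09 (adjusted p = 0.00413), the reverse of Foxp3 in the same libraries.

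Ikzf2, which marks many thymus-derived regulatory T cells, followed the same order. It had 151, 116 and 105 CPM in TGFβ + RA libraries, 189, 179.5 and 159 CPM in TGFβ libraries, 95.5, 72.3 and 80.7 CPM in RA libraries and 60.7, 50.7 and 60.5 CPM in IL-2 + IL-15 libraries. Every group stood clear of its neighbours in this order. The log2 fold change was 1.61 ± 0.13 for TGFβ against IL-2 + IL-15 (adjusted p = 6e-07), 0.53 ± 0.13 for RA alone (adjusted p = 0.00935) and -0.51 ± 0.13 for TGFβ + RA against TGFβ (adjusted p = 0.00594). For both factors the agents together gave less than the sum of their separate log2 effects, the interaction being -0.84 ± 0.13 for Ikzf4 (adjusted p = 0.000606) and -1.04 ± 0.18 for Ikzf2 (adjusted p = 0.00154). The interaction of Foxp3 had the opposite sign.

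Ctla4, which takes the co-stimulatory ligands CD80 and CD86 from antigen-presenting cells, rose against IL-2 + IL-15 in both groups with TGFβ. It had 353, 327 and 289 CPM in TGFβ + RA libraries, 314, 335 and 314 CPM in TGFβ libraries, 178, 170.4 and 233 CPM in RA libraries and 211, 224 and 251 CPM in IL-2 + IL-15 libraries. The TGFβ + RA and TGFβ libraries overlapped with each other and lay above all libraries of the other groups. Ctla4 rose by 0.49 ± 0.11 with TGFβ against IL-2 + IL-15 (adjusted p = 0.00229) and by 0.49 ± 0.11 with TGFβ + RA against IL-2 + IL-15 (adjusted p = 0.00114), while TGFβ + RA and TGFβ differed by 0.01 ± 0.11 (adjusted p = 0.956). The difference of RA from IL-2 + IL-15 was -0.24 ± 0.11 and was not called (adjusted p = 0.115, with 0.00284 to 0.404 in other analyses). It was called with no filter on low counts and without RA replicate 3, the RA library with the most Ctla4 (-0.38). The interaction was 0.25 ± 0.15 (adjusted p = 0.267, with 0.0173 to 0.560 in other analyses), called only without that library (0.38).

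Il2ra, the alpha chain that gives the interleukin-2 receptor its high affinity, did not follow Foxp3. It had 512, 493 and 429 CPM in TGFβ + RA libraries, 563, 558 and 590 CPM in TGFβ libraries, 375, 336 and 327 CPM in RA libraries and 606, 547 and 554 CPM in IL-2 + IL-15 libraries. The TGFβ and IL-2 + IL-15 libraries overlapped, and the RA libraries were the lowest. Between TGFβ and IL-2 + IL-15 the log2 fold change was 0.002 ± 0.07 (adjusted p = 0.987). Retinoic acid lowered Il2ra, with a log2 fold change of -0.72 ± 0.07 in RA against IL-2 + IL-15 cultures (adjusted p = 9.0e-06) and of -0.25 ± 0.07 for TGFβ + RA against TGFβ (adjusted p = 0.0110). The second of these missed the threshold without TGFβ + RA replicate 3, where the log2 fold change was -0.18 and the adjusted p 0.0586, the highest of its alternatives, which began at 0.00211. The fall with retinoic acid was smaller when TGFβ was present (interaction 0.46 ± 0.10, adjusted p = 0.00606).

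Nrp1, a co-receptor for semaphorins and vascular endothelial growth factor that marks many thymus-derived regulatory T cells, was lowest where Foxp3 was highest. It had 3.86, 2.54 and 3.42 CPM in TGFβ + RA libraries, 11.2, 14.2 and 13.7 CPM in TGFβ libraries, 8.33, 8.31 and 12.3 CPM in RA libraries and 20.9, 19.8 and 21.3 CPM in IL-2 + IL-15 libraries. The TGFβ + RA libraries were the lowest and the IL-2 + IL-15 libraries the highest, both clear of the rest, and the TGFβ and RA libraries overlapped. Its log2 fold change was -0.67 ± 0.15 in TGFβ against IL-2 + IL-15 cultures (adjusted p = 0.00268), -1.11 ± 0.15 in RA against IL-2 + IL-15 cultures (adjusted p = 0.000146) and -2.02 ± 0.18 for TGFβ + RA against TGFβ (adjusted p = 7.1e-07). The fall with both agents exceeded the sum of the separate log2 effects (interaction -0.91 ± 0.24, adjusted p = 0.0161), a call that was lost without TGFβ + RA replicate 2. There the value was -0.74 and the adjusted p 0.0544, against 0.00147 at the low end of its alternatives.

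Capg, an actin-capping protein, rose with TGFβ alone and fell when retinoic acid was present. It had 112, 118 and 105 CPM in TGFβ + RA libraries, 242, 230.1 and 247 CPM in TGFβ libraries, 126, 109 and 86.1 CPM in RA libraries and 192, 150.3 and 148 CPM in IL-2 + IL-15 libraries. The TGFβ libraries were the highest, and the TGFβ + RA and RA libraries overlapped below the IL-2 + IL-15 libraries. Capg changed by 0.55 ± 0.12 in TGFβ against IL-2 + IL-15 cultures (adjusted p = 0.00186), by -0.61 ± 0.12 in RA against IL-2 + IL-15 cultures (adjusted p = 0.00185) and by -1.10 ± 0.12 in TGFβ + RA against TGFβ cultures (adjusted p = 5.6e-06). Its interaction was -0.49 ± 0.17 and missed the threshold (adjusted p = 0.0553, with 0.00217 to 0.129 in other analyses). It was called without IL-2 + IL-15 replicate 1 (-0.64), without RA replicate 3 (-0.64), with no filter, by DESeq2 and with a replicate block.

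Lrrc32, which holds latent TGFβ on the cell surface, was called in no comparison. It had 15.0, 25.1 and 14.0 CPM in TGFβ + RA libraries, 16.4, 22.8 and 20.7 CPM in TGFβ libraries, 19.3, 14.3 and 18.1 CPM in RA libraries and 23.6, 20.0 and 26.2 CPM in IL-2 + IL-15 libraries. All 3 groups with an added agent averaged below IL-2 + IL-15, and TGFβ + RA replicate 2 stood above the others of its group. Lrrc32 differed by -0.36 ± 0.20 between TGFβ + RA and IL-2 + IL-15 (adjusted p = 0.130), by -0.23 ± 0.20 between TGFβ and IL-2 + IL-15 (adjusted p = 0.381) and by -0.13 ± 0.20 between TGFβ + RA and TGFβ (adjusted p = 0.632). RA libraries all lay below IL-2 + IL-15 libraries, a difference of -0.44 ± 0.20 that was called only with no filter on low counts (adjusted p = 0.0346, against 0.372 at the high end of its alternatives). Without TGFβ + RA replicate 2, Lrrc32 was called lower in TGFβ + RA than in IL-2 + IL-15, at -0.68 (adjusted p = 0.00292, the lowest of a range up to 0.429). The same omission gave -0.46 for TGFβ + RA against TGFβ (adjusted p = 0.0420, the lowest of a range up to 0.949).

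Counted over the comparisons, TGFβ alone raised 5 of the 8 genes (Foxp3, Ctla4, Ikzf2, Ikzf4 and Capg) and lowered 1 (Nrp1) against IL-2 + IL-15. Of all tested genes, 43.1% were called there, 20.7% as higher and 22.4% as lower. The groups did not overlap for 6 of the 8 genes, beside 56.1% of all genes. Retinoic acid alone raised 2 (Ikzf2 and Ikzf4) and lowered 3 (Il2ra, Nrp1 and Capg) against IL-2 + IL-15, where 26.7% of all genes were called, 12.4% as higher and 14.3% as lower. There 7 of the 8 genes did not overlap, beside 36% of all genes.

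TGFβ + RA against IL-2 + IL-15 raised 4 genes, Foxp3 by 7.89 ± 0.20, Ikzf4 by 2.33 ± 0.10, Ikzf2 by 1.11 ± 0.13 and Ctla4, and lowered 3, with log2 fold changes of -2.68 ± 0.17 for Nrp1, -0.55 ± 0.12 for Capg and -0.25 ± 0.07 for Il2ra. Of all tested genes 63.2% were called, 30.8% as higher and 32.4% as lower, and 69.9% did not overlap between the groups, beside 7 of the 8 genes. These 3 comparisons share their IL-2 + IL-15 libraries.

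When retinoic acid was added to TGFβ, Foxp3 was the gene of the 8 that rose, 5 fell (Il2ra, Ikzf2, Ikzf4, Nrp1 and Capg) and 2 were not called (Ctla4 and Lrrc32). This comparison called 43% of all genes, 20.3% as higher and 22.7% as lower, and 57.9% of all genes did not overlap, beside 6 of the 8. Without TGFβ + RA replicate 3, 4 of the 7 genes other than Foxp3 fell, Il2ra missing the threshold. The median log2 fold change of those 7 genes was -0.36, beside 0.01 for all tested genes. In TGFβ against IL-2 + IL-15, which shares the TGFβ libraries, it was 0.49, beside 0.0012 for all tested genes.

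TGFβ + RA against RA raised 5 of the 8, Foxp3 with the fold change above, Ikzf4 by 1.84 ± 0.09, Ctla4 by 0.74 ± 0.11, Ikzf2 by 0.58 ± 0.13 and Il2ra by 0.47 ± 0.07. It lowered Nrp1 (-1.58 ± 0.18). All these had adjusted p-values of 0.00177 or below, in a comparison that called 60.2% of all genes, 29.4% as higher and 30.8% as lower, with 64.5% not overlapping, beside 6 of the 8. The interaction was called for 5 of the 8, positive for Foxp3 and Il2ra and negative for Ikzf2, Ikzf4 and Nrp1. Of all genes 19.3% had a called interaction, 6.95% positive and 12.3% negative. Leaving out single libraries gave 4 to 7 of the 8.

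**Figure D2:**
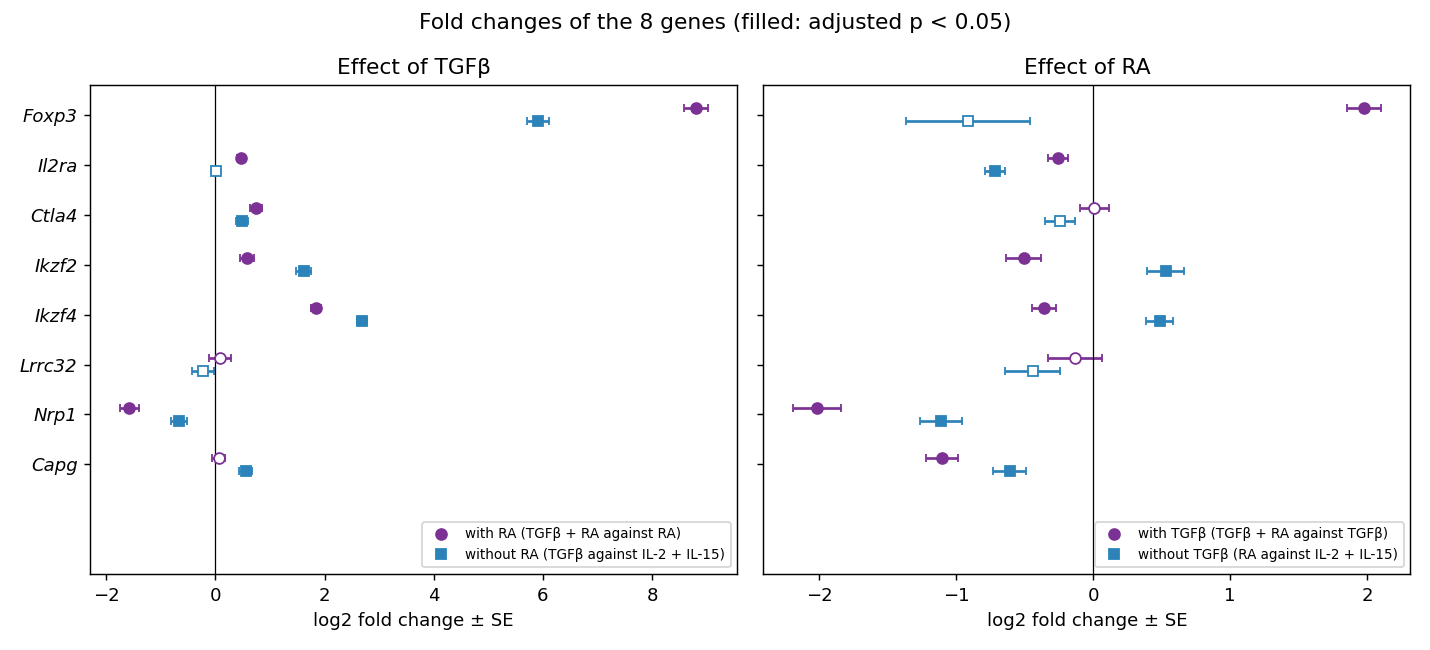
Log2 fold change ± SE (x axis) of the 8 genes (rows) for TGFβ with and without retinoic acid (left) and for retinoic acid with and without TGFβ (right), filled symbols marking an adjusted p under 0.05. In the right panel the symbol for Foxp3 with TGFβ lies at 1.98, while those of Il2ra, Ikzf2, Ikzf4, Nrp1 and Capg lie below 0.

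Per kilobase of exons, which allows genes to be ranked within a group, Ctla4 had the highest level of the 8 in TGFβ + RA cultures (139 CPM per kb), ahead of Il2ra (83.7), Foxp3 (46.8) and Capg (44.1). In TGFβ cultures Ctla4 (138 CPM per kb), Il2ra (99.8) and Capg (94.8) led, and Foxp3 (11.9) stood below Ikzf4 (15.9) and Ikzf2 (15.1). In RA cultures Foxp3 had 0.102 and in IL-2 + IL-15 cultures 0.200 CPM per kb, the lowest of the 8 genes in both.

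Wider lists of regulatory T cell genes were counted in the same way. Of 27 tested surface and effector genes, TGFβ against IL-2 + IL-15 raised 10 and lowered 6, beside 20.7% and 22.4% of all genes, and the median log2 fold change was 0.20, beside 0.0012. Itgae, the integrin chain that binds E-cadherin, was at 2028 ± 30.9 CPM in TGFβ cultures and 99.5 ± 23.8 CPM in IL-2 + IL-15 cultures (SD, n = 3 each; log2 fold change 4.35 ± 0.25, adjusted p = 2.3e-08). Nt5e, the ectoenzyme CD73 that makes adenosine, was at 222 ± 5.60 and 51.0 ± 4.31 CPM in the same groups (2.13 ± 0.07, adjusted p = 1.4e-10).

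Within this list the suppressive cytokine Il10 parted from Foxp3 between the groups with TGFβ. Il10 had 0.318, 0.659 and 0.736 CPM in TGFβ + RA libraries, 22.4, 24.4 and 27.7 CPM in TGFβ libraries, 0, 0.0752 and 0.238 CPM in RA libraries and 0.526, 0.488 and 0.522 CPM in IL-2 + IL-15 libraries. The TGFβ libraries alone were high, and the TGFβ + RA libraries lay around the level of IL-2 + IL-15. The log2 fold change was 5.58 ± 0.24 for TGFβ against IL-2 + IL-15 (adjusted p = 1.7e-09) and -5.36 ± 0.24 for TGFβ + RA against TGFβ (adjusted p = 1.4e-09). Over the whole list, TGFβ + RA against TGFβ raised 9 genes and lowered 10, beside 20.3% and 22.7% of all genes (median 0.12, beside 0.01). The chemokine receptor Ccr4 fell by 2.75 ± 0.15 (adjusted p = 5.5e-09) and the inhibitory receptor Pdcd1 fell by 2.53 ± 0.29 (adjusted p = 9.4e-06) on the log2 scale in that comparison. The interaction was called for 4 genes of the list as positive and for 13 as negative, beside 6.95% and 12.3% of all genes, with a median of -0.53 beside -0.0043 for all genes.

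Transcription factors of regulatory T cells and partners of Foxp3 (26 tested) were counted likewise. TGFβ raised 9 and lowered 10 against IL-2 + IL-15 (median 0.02), where all genes gave 20.7% and 22.4%. TGFβ + RA raised 9 and lowered 9 against TGFβ (median -0.07), where all genes gave 20.3% and 22.7%, so both splits were close to even, as over all genes. Maf, a factor that drives Il10 in several T cell types, had 31.1, 32.9 and 31.9 CPM in TGFβ + RA libraries and 4.90, 5.14 and 6.77 CPM in TGFβ libraries, which did not overlap. It rose by 2.51 ± 0.19 with TGFβ + RA against TGFβ (adjusted p = 1.8e-07), in the libraries in which Il10 was lower. Irf4, a factor of effector regulatory T cells, was at 58.6 ± 1.77 CPM in TGFβ + RA cultures and 235 ± 2.84 CPM in TGFβ cultures (-2.0 ± 0.04, adjusted p = 1.4e-12), and Zbtb32 fell by 1.63 ± 0.09 (adjusted p = 7.7e-09). Runx1, which binds Foxp3 in CD4 regulatory T cells, was at 12.7 ± 2.42 CPM in TGFβ cultures and 32.5 ± 3.68 CPM in IL-2 + IL-15 cultures (-1.36 ± 0.13, adjusted p = 1.6e-06). The chromatin organizer Satb1, which Foxp3 represses in CD4 regulatory T cells, fell by 0.94 ± 0.06 with TGFβ (adjusted p = 1.1e-07), while Maf rose by 1.23 ± 0.23 (adjusted p = 0.000789).

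Genes known to bear on the induction and upkeep of Foxp3 (24 tested) were counted next. TGFβ against IL-2 + IL-15 raised 6 and lowered 9 (median -0.04), beside 43.1% of all genes called in either direction. TGFβ + RA against TGFβ raised 2 and lowered 9 (median -0.10), beside 20.3% and 22.7% of all genes. Smad3, a transducer of TGFβ, was at 24.8 ± 1.18 CPM in TGFβ cultures and 84.1 ± 3.00 CPM in IL-2 + IL-15 cultures (-1.76 ± 0.06, adjusted p = 9.2e-11). Tet1, a DNA demethylase, and Nr4a3, a nuclear receptor induced by antigen receptor signals, fell by 1.07 ± 0.19 (adjusted p = 0.000542) and by 1.01 ± 0.15 (adjusted p = 0.000105) with TGFβ. Uhrf1, which guides maintenance DNA methylation, was at 8.38 ± 0.963 CPM in TGFβ + RA cultures and 83.2 ± 7.77 CPM in TGFβ cultures (-3.31 ± 0.14, adjusted p = 7.3e-10). Rara, a receptor for retinoic acid, was at 57.4 ± 4.68 and 141 ± 4.52 CPM in the same groups (-1.29 ± 0.07, adjusted p = 8.7e-09), and Nr4a1 fell by 1.46 ± 0.23 (adjusted p = 0.000195).

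Signature genes of CD4 regulatory T cells (25 tested) gave 12 higher and 7 lower for TGFβ against IL-2 + IL-15 (median 0.10), where 20.7% of all genes were higher and 22.4% lower. They gave 7 higher and 13 lower for TGFβ + RA against TGFβ (median -0.32), where 20.3% of all genes were higher and 22.7% lower. S100a4, a calcium-binding protein, was at 0.762 ± 0.294 CPM in TGFβ + RA cultures and 19.4 ± 4.77 CPM in TGFβ cultures (-4.61 ± 0.40, adjusted p = 6.5e-07), and the galectin Lgals1 was at 50.8 ± 4.25 and 341 ± 42.3 CPM (-2.75 ± 0.15, adjusted p = 5.5e-09). Dhrs3, a reductase that lowers retinoid levels and responds to retinoic acid, was at 9.56 ± 1.45 CPM in TGFβ + RA cultures and 0.601 ± 0.163 CPM in TGFβ cultures (4.0 ± 0.24, adjusted p = 2.1e-08). For TGFβ against IL-2 + IL-15, Rgs16 rose by 1.62 ± 0.30 (adjusted p = 0.000736), with 2.35 when IL-2 + IL-15 replicate 1 was left out, and Cst7 fell by 1.54 ± 0.12 (adjusted p = 2.6e-07). Dhrs3 rose by 1.31 ± 0.41 in that comparison (adjusted p = 0.0204), a call that did not hold when TGFβ replicate 2 or 3 or IL-2 + IL-15 replicate 1 or 2 was left out (adjusted p up to 0.0771, from 0.00602 in other analyses). The interaction was called for 0 of these genes as positive and 7 as negative (median -0.26), beside 6.95% and 12.3% of all genes.

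Genes that Foxp3 lowers in CD4 regulatory T cells (18 tested) gave 2 higher and 6 lower for TGFβ against IL-2 + IL-15 (median -0.18), beside 43.1% of all genes called. They gave 5 higher and 7 lower for TGFβ + RA against TGFβ (median -0.14), beside 43% of all genes called. Id2, an inhibitor of E proteins, was at 61.7 ± 5.34 CPM in TGFβ cultures and 345 ± 48.6 CPM in IL-2 + IL-15 cultures (-2.48 ± 0.14, adjusted p = 2.0e-08), whereas its relative Id3 was at 47.6 ± 7.05 and 23.8 ± 0.290 CPM (1.00 ± 0.12, adjusted p = 1.4e-05). For TGFβ + RA against TGFβ, Dapl1 fell by 3.07 ± 0.28 (adjusted p = 8.8e-07) and the chemokine Ccl4 rose by 1.95 ± 0.43 (adjusted p = 0.00248). Ifng, the cytokine interferon gamma, was at 0.559 ± 0.525 CPM in TGFβ + RA cultures and 8.05 ± 1.2 CPM in TGFβ cultures (-4.03 ± 0.98, adjusted p = 0.00445), with a log2 fold change of -4.96 when TGFβ + RA replicate 1 was left out.

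**Figure D3:**
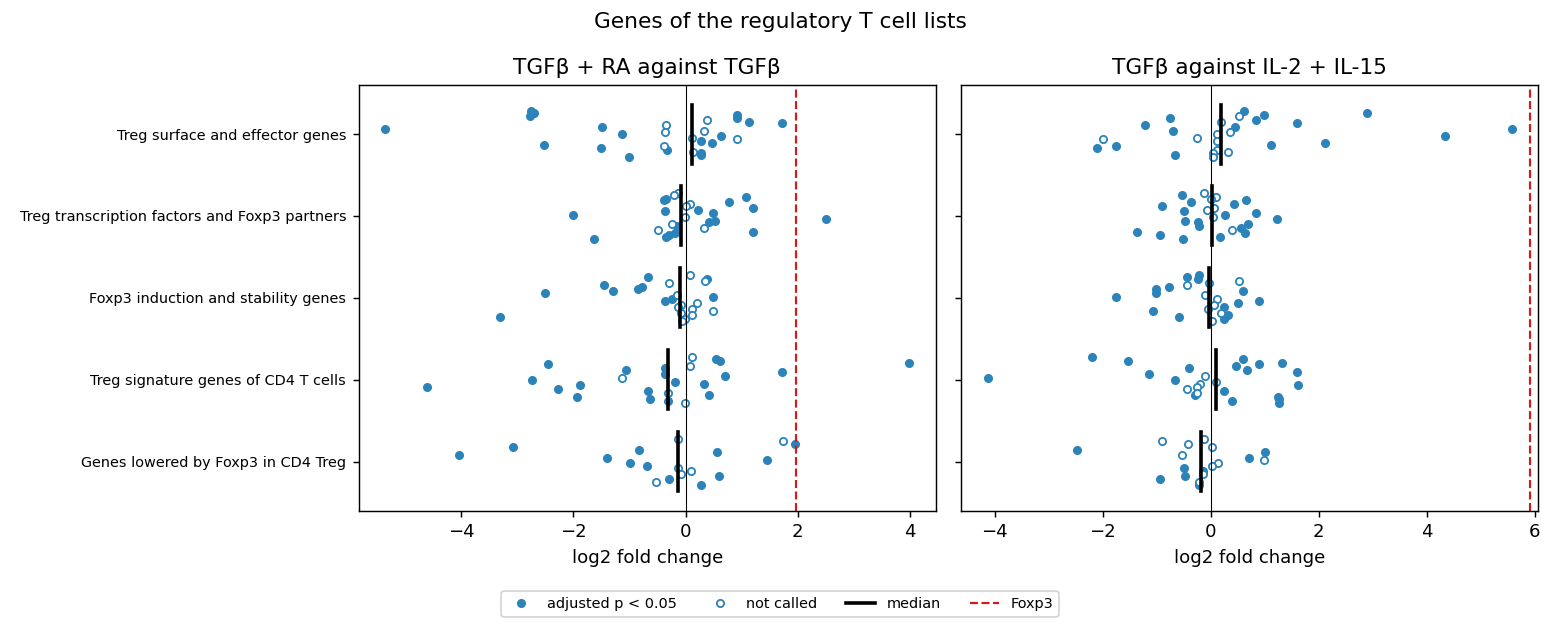
Log2 fold changes (x axis) of the tested genes of 5 regulatory T cell lists (rows), 1 point per gene, for TGFβ + RA against TGFβ (left) and TGFβ against IL-2 + IL-15 (right); filled points had an adjusted p under 0.05, black bars are list medians and the dashed line is Foxp3. The list medians lie between -0.32 and 0.20, while Foxp3 lies at 1.98 on the left and 5.91 on the right.

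The genes with the profile closest to Foxp3 over the 12 libraries came from outside these lists. Likeness was the root mean square difference of centred log2 CPM, a description in which a small value is close, over 10025 genes averaging at least 5 CPM. Values were centred but not scaled, so a gene with a profile of the same shape but smaller changes lies further off. The nearest were Mcpt2 (0.76), Apol9b (0.81), Mcpt1 (0.81), Apol9a (0.91), Igha (0.95) and Cpd (1.09). Mcpt1 and Mcpt2 encode mast cell proteases, Apol9a and Apol9b apolipoprotein L proteins, Igha the constant region of immunoglobulin A, and Cpd a carboxypeptidase. Mcpt2 was at 58.8 ± 26.7 CPM in TGFβ + RA cultures, 18.7 ± 9.69 in TGFβ cultures, 0.185 ± 0.0890 in RA cultures and 0.150 ± 0.0824 in IL-2 + IL-15 cultures (SD, n = 3 each). Apol9b was at 44.5 ± 6.30, 38.0 ± 0.331, 0.0963 ± 0.0516 and 0.115 ± 0.0642 CPM in the same order of groups. Apol9a was at 12.2 ± 2.37 CPM in TGFβ + RA and 13.7 ± 1.72 in TGFβ cultures, and Cpd at 206 ± 15.7 and 192 ± 8.72. Foxp3 was at 214 ± 40.9 and 54.3 ± 2.48 CPM there, so Apol9b, Apol9a and Cpd lacked most of its gain with retinoic acid. Reads of Apol9a and Apol9b may be split between near-identical copies, so each gene's own level is uncertain. Whether reads were shared between the related genes Mcpt1 and Mcpt2 was not tested.

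These genes were chosen by that profile and reached the level asked for through the groups with TGFβ, so their differences between groups are a description and no test of them is given. Among the 7 genes of the regulatory programme, Ikzf4 came closest to Foxp3, at rank 54 of 10025 (2.67), followed by Ikzf2 at rank 248 (3.24) and Ctla4 at rank 525. Il2ra stood at rank 2372 (3.59), Capg at 3162 (3.63), Lrrc32 at 6340 (3.76) and Nrp1 at 9698 (4.40). From Il2ra to Lrrc32 the ranks lie far apart but the distances lie close together.

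**Figure D4:**
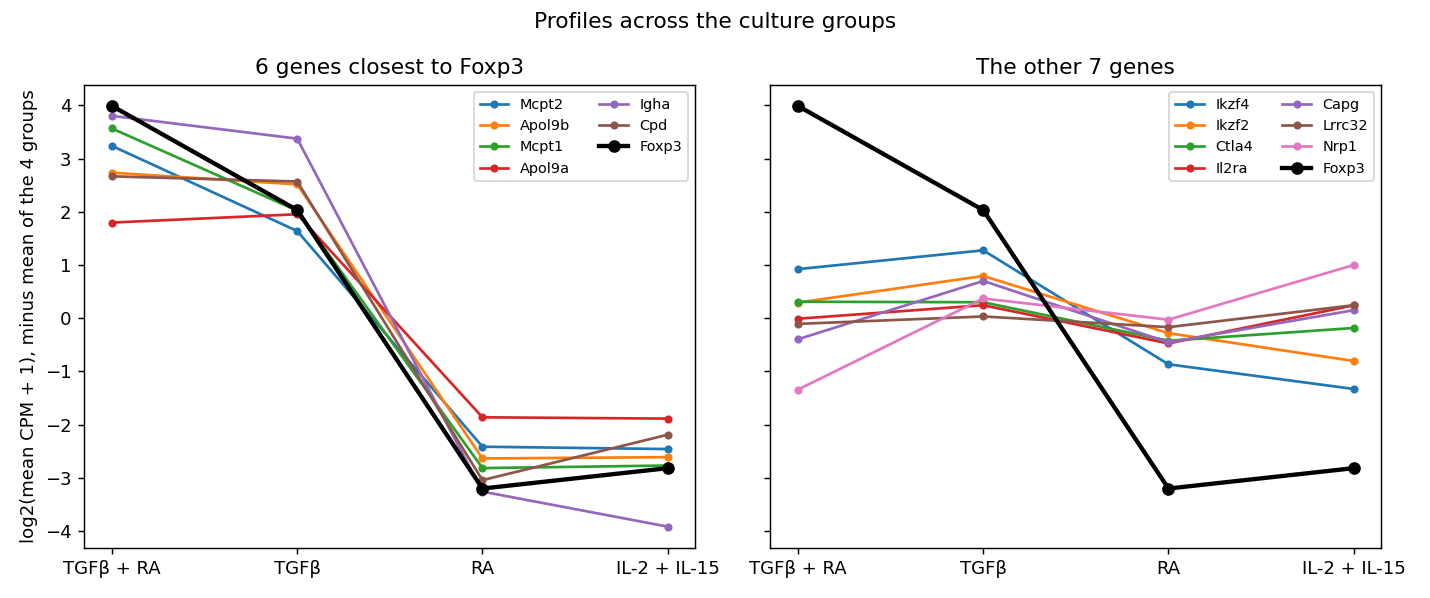
Log2 of the group mean CPM plus 1, centred on the mean of the 4 culture groups (y axis), across the groups (x axis) for Foxp3 (black) with the 6 genes closest to it (left) and with the other 7 regulatory T cell genes (right). On the left all lines drop between TGFβ and RA cultures, and on the right the lines of the 7 genes are flatter than that of Foxp3, with Nrp1 lowest in TGFβ + RA cultures.

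Markers of other cell types were measured in the same libraries. The 4 CD4 T cell markers summed to 58.7 to 68.5 CPM in TGFβ + RA libraries, 60.0 to 71.3 in TGFβ libraries, 114 to 117 in RA libraries and 107 to 111 in IL-2 + IL-15 libraries. The difference in the sum was mostly that of Zbtb7b, while Izumo1r was at 35.1 ± 2.16, 32.2 ± 7.39, 36.2 ± 9.09 and 38.6 ± 2.95 CPM in the same order of groups and was called in no comparison. Cd4 itself was at 0.280 to 0.736 CPM in the groups with TGFβ. The 7 B cell markers summed higher in the groups with TGFβ, with 1879 to 2371, 1406 to 1438, 417 to 646 and 315 to 421 CPM in the same order of groups. Nearly all of that sum was Ighm. Cd79b was at 23.2 ± 1.94, 29.0 ± 1.31, 16.7 ± 1.35 and 14.6 ± 1.80 CPM in the same order. Ighd was at 15.1 ± 0.515, 21.8 ± 1.43, 3.13 ± 2.04 and 2.18 ± 1.31 CPM. Of the 4 tested B cell markers, 3 were called higher in TGFβ and 4 in TGFβ + RA, each against IL-2 + IL-15. Those comparisons called 20.7% and 30.8% of all genes higher. Ms4a1 and Pax5 had at most 1 count in any library. The 6 gamma delta T cell markers summed to 624 to 713, 443 to 485, 191 to 310 and 165 to 226 CPM. Of the 5 tested, 4 were called higher in TGFβ than in IL-2 + IL-15 (Tcrg-C1, Tcrg-C2, Tcrg-C4 and Zbtb16) and Trdc lower. The same calls were made where both agents had been given, against the same cultures. All genes gave 20.7% and 22.4% in the first comparison and 30.8% and 32.4% in the second. Tcrg-C2 was at 471 ± 29.0, 313 ± 20.8, 142 ± 41.9 and 97.6 ± 21.1 CPM in the same order of groups. Trdc, the constant region of the delta chain, was at 16.7 ± 6.10, 25.2 ± 2.33, 44.8 ± 14.1 and 41.1 ± 7.35 CPM. The 8 natural killer cell markers summed to 2727 to 2928, 596 to 739, 522 to 1685 and 302 to 371 CPM, most of it the granzyme Gzma and the factor Eomes, which CD8 T cells also make. Kir3dl1 was at 0 in all libraries, and Ncr1 had at most 3 counts in any library with TGFβ, 2 to 14 in RA libraries and at most 2 in IL-2 + IL-15 libraries. Klrb1c was at 0.688 to 1.10 CPM in TGFβ + RA libraries and 0.247 to 1.42 in TGFβ libraries. It was at 16.9 to 53.0 CPM in RA libraries and 7.37 to 16.9 in IL-2 + IL-15 libraries. Of the 6 tested natural killer markers, 4 were called higher in RA than in IL-2 + IL-15, beside 12.4% of all genes. For TGFβ + RA against TGFβ, 3 were higher and 0 lower, beside 20.3% and 22.7% of all genes. Against IL-2 + IL-15, 1 was higher and 2 lower in TGFβ, beside 20.7% and 22.4%. The counts were the same in TGFβ + RA, beside 30.8% and 32.4%. For TGFβ + RA against RA, 1 was higher and 3 lower, beside 29.4% and 30.8%. The 11 myeloid markers summed to 3.33 to 27.0, 7.65 to 12.1, 11.3 to 25.6 and 38.4 to 49.2 CPM. Itgam, an integrin chain that activated CD8 T cells also make, gave most of that sum outside TGFβ + RA cultures, with 42.9 ± 5.45 CPM in IL-2 + IL-15 cultures, where Lyz2 had at most 1 count in a library. The part of CD4 T cell, B cell, gamma delta T cell, natural killer cell and myeloid RNA in the levels of the 8 genes was not tested.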

How the data were processed

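RNA of 12 cultures of mouse CD8 T cells was sequenced from stranded mRNA libraries, per the labels. Reads were aligned with STAR to GRCm38 and assigned to genes with featureCounts, per the submitters' processing notes; the sources used here name no versions and no strand setting. The authors deposited whole-number counts for every gene, without normalization, which sum to 18300206 to 33477037 per library. Such totals leave genes with few counts, as Foxp3 without TGFβ, the least precise.

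Genes were filtered with filterByExpr (minimum count 10), scaled by TMM and fitted with the quasi-likelihood model of edgeR 4.0.16 in R 4.3.3, with a mean per culture group (8 residual degrees of freedom). In all, 5 contrasts and the interaction were tested with Benjamini-Hochberg adjustment over 14009 genes. Each SE comes from the fold change and its F statistic, which can make it too small where a group has few counts. The procedure was also run on simulated counts in which few genes changed and all genes had the same dispersion. Those settings differ from these data, so that run is not used as support. Symbols, exons and coordinates came from GENCODE for GRCm38, which held 45143 of the 46078 identifiers.

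The 8 genes and the 5 lists were chosen with earlier results of these data known, as were the tests. Of each list, the 3 genes with the greatest change among those called with a mean of at least 5 CPM are named for the contrasts TGFβ against IL-2 + IL-15 and TGFβ + RA against TGFβ. The alternatives were DESeq2 size factors, no filter, the DESeq2 1.42.0 Wald test, a replicate block, only the compared groups, and leaving out each library. The 6 genes nearest to Foxp3 were taken by the root mean square difference of centred log2 CPM (prior count 2).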

Additional observations from a re-analysis of the deposited data

Results flagged for a closer look

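The effect of TGFβ differed with and without retinoic acid for 5 of the 8 genes, by the interaction term fitted in edgeR over all genes, of which 19.3% had a called interaction. It was larger with retinoic acid for Foxp3, by 2.89 on the log2 scale, and for Il2ra, by 0.46. It was smaller, or more negative, with retinoic acid for Ikzf2 (-1.04), Ikzf4 (-0.84) and Nrp1 (-0.91). The interaction of Foxp3 rests in part on 8 to 15 counts per RA library and 20 to 35 counts per IL-2 + IL-15 library.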

How the results depend on the processing

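Of 48 fold changes of the 8 genes, 34 kept their direction and their side of the threshold under every alternative run, among them every fold change of Foxp3 other than RA against IL-2 + IL-15, where the DESeq2 Wald test gave an adjusted p of 0.0228. Directions that turned were all of values that were not called. Ctla4 in TGFβ + RA against TGFβ was -0.0061 when only the compared groups were fitted, and -0.057 to 0.084 when single libraries were left out. Leaving out single libraries also gave -0.026 to 0.050 for Il2ra in TGFβ against IL-2 + IL-15, and -0.091 to 0.17 for Capg in TGFβ + RA against RA. For Lrrc32 it gave -0.46 to 0.029 in TGFβ + RA against TGFβ, -0.25 to 0.24 in TGFβ + RA against RA and -0.021 to 0.47 for the interaction. The causes were not tested. Over all genes the interaction was called for 2702, and for 2040 to 4158 without single libraries, the highest without RA replicate 3.

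Replicate numbers are shared between groups, but the sources used here do not say what they mark. Deviations of same-numbered libraries from their group means correlated by -0.0039 to 0.341, above 0.1 in 10 of 18 pairs, and 12 of 12 libraries had a higher mean correlation with their own number than with either other number, a hint from the data. With a replicate block, 6 of the 8 genes were called for TGFβ against IL-2 + IL-15, 5 for RA and 7 for TGFβ + RA against the same cultures, 6 for TGFβ + RA against TGFβ, 6 for TGFβ + RA against RA and 6 for the interaction, Capg being added there. Of the 14009 genes tested, the block called 3091 higher and 3290 lower for TGFβ and 1867 and 2154 for RA against IL-2 + IL-15. It called 4427 and 4632 for both agents against IL-2 + IL-15, 3023 and 3301 for both against TGFβ, 4257 and 4418 for both against RA, and 1185 positive and 1887 negative interactions. The block changed no other call of the 8 genes.

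Low counts limit the precision of Foxp3 and Il10 in RA and IL-2 + IL-15 cultures and of the transcripts that overlap Foxp3.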
